A study of Mus musculus with 2 samples.

Results

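The cells described here are *Ccr2*+ *Lyz2*+ barcodes from the second of 2 single-cell RNA sequencing runs deposited for mice with the wild-type (PEP-WT) or the 619WW (PEP-619WW) form of *Ptpn22*. They were chosen by their own measured values. A barcode was taken if it held at least 5 unique molecular identifiers (UMIs, each counting 1 captured RNA molecule) of *Lyz2* and at least 1 of *Ccr2*, fewer than 5 of *C1qa* and *C1qb* together, fewer than 20 of *S100a8* and *S100a9* together, and none of *Flt3*, *Cd3e* or *Cd79a*. In run 2 the gate held 610 of 9539 barcodes of the PEP-WT library and 2272 of 11029 of the PEP-619WW library, that is 2882 of 20568. The same gate in run 1 held 352 of 14821 and 131 of 8576 barcodes, together 483.

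The study asked how the pro-autoimmune allele of *Ptpn22*, which encodes the phosphatase PEP, alters the immune response to a virus. By its methods, PEP-619WW mice are C57BL/6 mice in which CRISPR/Cas9 placed the murine ortholog of the human risk allele, and PEP-WT mice carry the normal gene on the same background. Males and females aged 6 to 12 weeks were infected intravenously with the chronic lymphocytic choriomeningitis virus strain clone 13 (LCMV-cl13). At 8 days after infection, live CD45+ cells were sorted from the pooled spleens of 4 to 5 mice of each genotype, described as matched for age and sex, and run on the 10x Genomics platform. Each genotype thus gave 1 library per run, and the mice within a pool cannot be separated. The cell numbers that the methods state for the PEP-WT and PEP-619WW libraries equal the barcode numbers of run 2 and not those of run 1, so by the methods run 2 is the spleen experiment. The sources disagree about where the cells came from, since the sample labels name liver as the tissue, Jurkat as the cell line and tumor infiltrating CD45+ cells as the cell type. The origin of run 1 is not stated in the sources used here, and the disagreement about the tissue of run 2 was not settled.

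Classical monocytes leave the bone marrow through the chemokine receptor CCR2 and carry LY6C on their surface, with lysozyme, fibronectin and versican among their abundant transcripts. They can become nonclassical monocytes, which patrol vessels and lose *Ccr2* and *Ly6c2*, and in inflamed tissue or tumors they give rise to macrophages and to antigen-presenting cells. Type I interferon, interferon gamma, low oxygen and lipid uptake each leave a known set of transcripts in these cells. PEP is expressed in leukocytes, where it works with the kinase CSK to restrain signaling by SRC family kinases.

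The genes of the gate are given as a description only. The median *Lyz2* count of a member was 29 UMIs in run 2 PEP-WT and 37 in run 2 PEP-619WW, and the median *Ccr2* count was 3 and 6. At the edges, 28 and 76 members had exactly 5 *Lyz2* UMIs, and 32 and 84 barcodes missed the gate with 4. For *Ccr2*, 169 and 274 members had exactly 1 UMI, whereas 576 and 304 barcodes were left out with none. The limit on *C1qa* and *C1qb* cut through a large population in run 2 PEP-WT: 49 PEP-WT and 84 PEP-619WW members had 4 of these UMIs, 38 and 73 barcodes were left out with 5, and 1376 and 1283 barcodes were left out with 5 or more. Only 187 of the 610 PEP-WT members lacked both genes, against 1780 of the 2272 PEP-619WW members. Summed over members, *C1qa* stood at 86.6 and 17.5 counts per 1000000 UMIs (CPM). A gate that asked for 0 UMIs of both genes would keep 1.96% and 16.1% of barcodes. Without any limit on them, the 1376 and 1283 barcodes left out would be members too. The shares of the run 2 libraries would then lie closer to each other, so the difference in share depends on this limit.

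Members made up 6.39% of barcodes in run 2 PEP-WT (exact binomial 95% interval 5.91 to 6.90%) and 20.6% in run 2 PEP-619WW (19.8 to 21.4%). In run 1 these shares were 2.38% and 1.53%. The intervals here and below are exact and cover counting error only, since a library has no replicate and PCR and pooling add spread that cannot be measured. No test between the genotypes of a run or between the runs of a genotype was therefore made, and the differences below are given by their size. Both run 2 libraries had a similar depth per member, with a median of 5191.5 and 5244 UMIs and 1767.5 and 1925 genes, and a range of 536 to 24125 and 508 to 25009 UMIs. Run 1 members had medians of 5415.5 and 7187 UMIs. In run 2, mitochondrial UMIs exceeded 10% in 6.07% of PEP-WT members and in 1.06% of PEP-619WW members. The run 2 libraries shared 31 barcode sequences, none of them a member in both, and each other pair of libraries shared 19 to 49.

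The members of run 2 held the classical monocyte genes unevenly. Against run 1, 2 of the 10 listed genes outside the gate were higher and 5 lower in PEP-WT (median log2 ratio -1.47), and 4 were higher and 4 lower in PEP-619WW (median 0.32). Levels are given as CPM of the members' summed UMIs, in the order run 1 PEP-WT, run 1 PEP-619WW, run 2 PEP-WT and run 2 PEP-619WW, and each UMI counts a transcript once, so no length correction was made. *Ly6c2*, whose product defines classical monocytes in the mouse, stood at 4182, 3335, 91.0 and 495 CPM. *Plac8* stood at 7086, 6751, 352 and 1903 CPM. Both were high in both run 1 libraries, low in run 2 PEP-WT and intermediate in run 2 PEP-619WW. *Chil3*, a chitinase-like secreted protein, had the same order at 6216, 5283, 125 and 408 CPM. By contrast *Fn1*, which encodes fibronectin, stood at 497, 724, 2545 and 1747 CPM, and *Vcan*, versican, at 199.5, 161, 317 and 471 CPM. *F13a1*, a coagulation factor subunit of monocytes, stood at 339, 236, 493 and 618 CPM, and *Csf1r*, the receptor for the main monocyte growth factor, at 279, 201, 208 and 332 CPM. For these matrix and growth factor genes the run 2 members were as high as the run 1 members or higher, except for *Csf1r* in PEP-WT. Because *Ly6c2* was low and genes of macrophages were high (below), the barcodes are called *Ccr2*+ *Lyz2*+ members here and not monocytes.

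**Figure D1:**
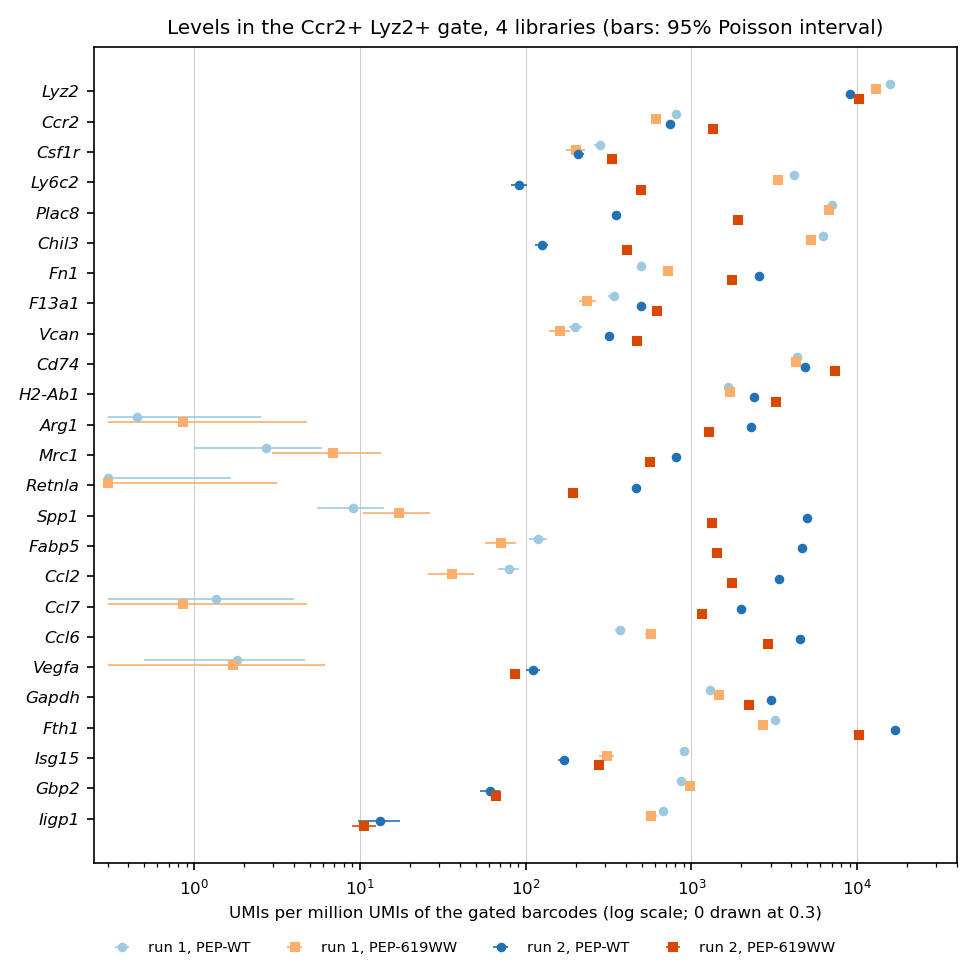
Levels of 25 genes in the *Ccr2*+ *Lyz2*+ members of the 4 libraries, as CPM of summed UMIs on a log axis, with exact 95% Poisson intervals for counting error and a level of 0 drawn at 0.3. *Ly6c2* runs from 4182 CPM in run 1 PEP-WT to 91.0 CPM in run 2 PEP-WT, and *Arg1* from 0.453 to 2280 CPM.

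The difference from other myeloid barcodes of the same libraries was also measured. Barcodes with at least 5 *Lyz2* UMIs, no *Ccr2* and at least 5 UMIs of *C1qa* and *C1qb* (C1q-high barcodes) numbered 3777 in run 2 PEP-WT and 256 in run 2 PEP-619WW. Members of run 2 PEP-WT held 317 CPM of *Vcan* and 2545 CPM of *Fn1*, and the C1q-high barcodes beside them 15.1 and 286 CPM. For *Ly6c2* the levels were 91.0 CPM in members and 3.07 CPM in C1q-high barcodes. In run 2 PEP-619WW the members again had more *Vcan* (471 against 49.7 CPM), *Fn1* (1747 against 689 CPM) and *Ly6c2* (495 against 47.2 CPM). *Apoe*, an apolipoprotein made by macrophages, was lower in members, at 1589 against 4781 CPM in PEP-WT and 1679 against 4552 CPM in PEP-619WW. *Arg1*, encoding arginase, which consumes arginine in suppressive myeloid cells, was higher in PEP-WT members than in PEP-WT C1q-high barcodes (2280.3 against 645 CPM) and lower in PEP-619WW members than in PEP-619WW C1q-high barcodes (1284 against 1573 CPM). These barcodes were split by C1q and *Ccr2*, so the contrast describes the split and is not a test.

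Markers of other cells were read over whole lists in the members. The 7 T cell genes summed to 4.40 CPM in run 2 PEP-WT, where 1 of them was at 0, and to 59.8 CPM in run 2 PEP-619WW, where none was at 0. The 5 NK cell genes summed to 4.67 and 73.1 CPM, and the 6 genes of conventional dendritic cells to 45.6 and 114 CPM. In these lists PEP-619WW members were higher in run 2, and 50 PEP-619WW members but no PEP-WT member held 3 or more T cell genes. The 6 melanocyte genes went the other way, at 78.3 and 52.1 CPM. Among them the pigment genes *Dct*, *Mlana* and *Tyrp1* stood at 15.7, 8.79 and 6.87 CPM in run 2 PEP-WT and 5.65, 2.90 and 2.29 CPM in run 2 PEP-619WW, and all 3 were at 0 UMIs in the members of both run 1 libraries. Over whole libraries, 431 run 2 PEP-WT and 44 run 2 PEP-619WW barcodes held 3 or more melanocyte genes, and no run 1 barcode did. The 5 hepatocyte genes were at 0 in run 2 PEP-WT members and at 0.305 CPM in run 2 PEP-619WW members, and those of mast cells and basophils were at 0 in both.

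Sex-linked transcripts differed among the libraries. *Xist*, expressed from the inactive X of females, was seen in 281 of 352 and 105 of 131 run 1 members, and no run 1 member had a UMI of a Y-linked gene. In run 2 PEP-WT, 212 of 610 members had *Xist*, 167 had a Y-linked UMI and 11 had both. In run 2 PEP-619WW no member had *Xist*, and 1149 of 2272 had a Y-linked UMI. The run 2 genotype contrast therefore also sets a library of mixed sex against a library with no *Xist* member, which goes against the sex matching stated in the methods. The comparison was repeated with only members that had a Y-linked UMI and no *Xist*, 156 in PEP-WT and 1149 in PEP-619WW, a choice made after seeing the data, and its values are given where they bear on a result.

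The most abundant transcripts of run 2 members, outside ribosomal and mitochondrial genes, were cytoskeletal (*Tmsb4x*, *Actb*), translation and growth related (*Tpt1*, *Fau*), the nuclear RNA *Malat1*, the gate gene *Lyz2*, the galectin gene *Lgals3*, the ferritin genes *Fth1* and *Ftl1*, the MHC class II chaperone *Cd74*, the chemokine *Ccl6* and *Gm42418*. *Fth1*, whose product stores iron, stood at 3212, 2715, 16871 and 10183 CPM in the 4 libraries, and *Ftl1* at 3017, 2594, 10701 and 7481 CPM. Both ferritins were thus highest in run 2 PEP-WT. *Ccl6* had 368, 569, 4490.0 and 2889 CPM. *Gm42418*, which overlaps ribosomal RNA sequence, took 49271 CPM in run 2 PEP-WT and 9780.5 CPM in run 2 PEP-619WW, and its companion *AY036118* took 1106 and 129.9 CPM. The run 1 libraries lay between for *Gm42418*, at 17575 and 15359.5 CPM. The part of this transcript in the other differences was not tested, but removing both from the totals is given below as an alternative scaling.

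Run 2 members differed from the same gate in run 1 by far more genes than the genotypes differed within a run. A gene was called when it had at least 100 UMIs in the 2 sums and a CPM ratio of at least 2-fold. In PEP-WT, 527 of 5901 compared genes were higher in run 2 (8.93%) and 875 were lower (14.8%), with a median log2 ratio of -0.17. In PEP-619WW, 1024 of 8247 were higher (12.4%) and 543 lower (6.58%), with a median of 0.07, and 955 of the 1024 had a counting interval above 0. Both genotypes called 400 genes higher, which is 75.9% of the calls in PEP-WT and 39.1% of those in PEP-619WW, and 295 lower, which is 33.7% and 54.3%. With median-ratio scaling in place of totals, the share of PEP-WT calls that were higher was 48.1% and not 37.6%. Tissue, sex, day and handling may all differ between the runs and cannot be told apart here.

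Part of the alternative activation list was far higher in run 2. In PEP-WT, 6 of 13 compared genes of the list were higher and 1, *Chil3*, was lower, with a median log2 ratio of 0.69, and 5 lay below 0. In PEP-619WW 9 of 14 were higher and 1 lower, with a median of 1.85. *Arg1* had 1 UMI in each run 1 library (0.453 and 0.855 CPM) and stood at 2280.3 and 1284 CPM in run 2. *Mrc1*, the mannose receptor CD206, stood at 2.72 and 6.84 CPM in run 1 and at 811 and 559.8 CPM in run 2. *Retnla*, a secreted protein induced by interleukin 4, had 0 UMIs in both run 1 libraries and 462 and 193 CPM in run 2, at least 339.8-fold and 75.2-fold higher when 3 UMIs are taken for run 1. *Mgl2*, a lectin of such cells, was 593-fold and 222-fold higher, from 1 and 2 UMIs in run 1. The elastase gene *Mmp12* rested on 0 and 1 UMIs in run 1 and stood at 566 and 199.7 CPM in run 2. *Thbs1*, thrombospondin, went from 43.5 and 42.7 CPM to 1273 and 984 CPM.

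Most chemokine genes were higher in run 2. In PEP-WT 14 of 17 compared chemokines were higher and 3 were lower, with a median log2 ratio of 4.64. In PEP-619WW 15 of 18 were higher and 2 lower, with a median of 3.61. The monocyte attractants *Ccl2* and *Ccl7* stood at 3384 and 1977 CPM in run 2 PEP-WT and 1759 and 1161 CPM in run 2 PEP-619WW, and *Ccl7* had 3 and 1 UMIs in run 1. *Ccl24*, an eosinophil attractant, stood at 4.08, 5.98, 382 and 735 CPM. *Cxcl3*, a neutrophil attractant, had no UMI in run 1 and 416 and 176 CPM in run 2. The chemokines that were lower in both genotypes were *Cxcl9* and *Cxcl10*, which interferon gamma induces and which attract T cells. *Cxcl9* stood at 244, 156, 99.5 and 55.9 CPM.

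Genes of low oxygen, glycolysis and lipid handling were higher in run 2. All 13 compared hypoxia genes were called higher in PEP-WT (median log2 ratio 3.45) and all 13 in PEP-619WW (3.35). *Vegfa*, the angiogenic growth factor, stood at 1.81, 1.71, 111 and 85.9 CPM, and *Hilpda*, a lipid droplet protein induced by low oxygen, at 9.07, 6.84, 464 and 297 CPM. Both were low in each run 1 library, and *Vegfa* was 61.4-fold and 50.3-fold higher in run 2. In glycolysis 11 of 13 genes were higher in PEP-WT and 7 of 13 in PEP-619WW, among them the lactate exporter *Slc16a3* and *Ldha*, which makes lactate. The lipid handling and lysosome list had 17 of 19 genes higher in PEP-WT (median 2.78) and 12 of 19 in PEP-619WW (median 1.75), and none lower. *Spp1*, osteopontin, stood at 9.07, 17.1, 4988 and 1337 CPM. *Fabp5*, a fatty acid carrier, stood at 118, 70.9, 4659 and 1428 CPM, and *Cd63*, a lysosomal membrane protein, at 4.53, 2.56, 591 and 290.0 CPM. In each case run 2 PEP-WT was highest. *Spp1* and *Fabp5* were also seen in T cell barcodes of run 2 PEP-WT, as given below, and the part of free RNA in these levels was not tested. Of the macrophage marker list, 5 of 6 compared genes were higher in PEP-WT (median 2.20) and 4 of 7 in PEP-619WW (median 1.20), with none lower. *Maf*, a macrophage transcription factor gene, stood at 88.4, 93.2, 555 and 642 CPM. *Hmox1*, which breaks down heme, was 12.9-fold and 9.56-fold higher.

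Interferon and MHC class I genes were lower in run 2, in more genes in PEP-WT than in PEP-619WW. Of the interferon-stimulated genes, 34 of 35 compared were lower in run 2 PEP-WT than in run 1 PEP-WT, with a median log2 ratio of -2.59. In PEP-619WW 9 of 36 were lower and 1, *Rsad2*, was higher, with a median of -0.49. The interferon gamma targets were lower in 15 of 17 (median -2.98) and 14 of 17 (median -1.67), and *Nos2*, the inducible nitric oxide synthase, was the 1 higher gene in each. The GTPase gene *Iigp1* stood at 670.2, 573, 13.2 and 10.6 CPM, and *Gbp2* at 867, 980.3, 61.0 and 65.9 CPM. Here both run 2 libraries were low and the genotypes were close. MHC class I and immunoproteasome genes were lower in 15 of 16 and 11 of 16. MHC class II did not follow: 1 of 8 genes was lower in PEP-WT (median 0.29) and 1 of 8 higher in PEP-619WW (median 0.82).

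Cell cycle genes were lower in run 2 as well, 14 of 16 in each genotype, with medians of -1.79 and -2.42. Transcripts of early granulocyte and monocyte precursors were at or near 0 in run 2. *Ms4a3* had 186 and 160 UMIs in run 1 members and 0 and 5 in run 2 members. The granule protease *Elane* had 121 and 281 UMIs in run 1 and 0 and 2 in run 2, and *Ctsg* had 239, 420, 0 and 3. Immunoglobulin transcripts, which monocytes do not make, were lower in run 2: *Igkc* stood at 1303, 7216, 0 and 5.88 CPM, *Ighg2c* had 0 UMIs in both run 2 libraries, and *Ighm* stood at 153, 154, 18.7 and 58.8 CPM. The nonclassical monocyte list was lower in 6 of 7 compared genes in PEP-WT and 6 of 9 in PEP-619WW.

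Within run 2, PEP-619WW members differed from PEP-WT members in 547 of 8466 compared genes, of which 451 were higher (5.33%) and 96 lower (1.13%). These counts include gate genes. The member sums were 3638951 UMIs in PEP-WT and 13101819 in PEP-619WW. A gene seen mainly in PEP-619WW therefore reached the limit of 100 UMIs at a lower CPM than a gene seen mainly in PEP-WT. The part of this limit in the excess of higher genes was not tested. The median over all compared genes was shifted by 0.21 on the log2 scale, and with median-ratio scaling, which removes this shift, 261 genes were higher and 151 lower, so the higher share of the calls went from 82.4% to 63.3%. Leaving *Gm42418* and *AY036118* out of the totals gave 374 higher and 115 lower. Differences below are PEP-619WW over PEP-WT on the log2 scale and should be read against that shift. In run 1 the same contrast called 33 of 4380 genes higher (0.753%) and 49 lower (1.12%), with a median of -0.07. Of the 451 genes higher in run 2, 231 could be compared in run 1, 35 of those had the same sign there, 2 passed 2-fold in both runs and 21 passed it in the opposite direction.

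In the genotype contrast of run 2, several monocyte and interferon-stimulated transcripts were higher in PEP-619WW, and lipid, lysosome and some macrophage chemokine transcripts were higher in PEP-WT. *Ly6c2* was 5.44-fold higher in PEP-619WW (log2 2.44, interval 2.28 to 2.61), and *Plac8* by 2.44 (2.35 to 2.52). *Chil3* was higher by 1.70 (1.57 to 1.85). None of these was called in run 1, where PEP-619WW was lower in each at -0.33, -0.07 and -0.23. Of the 10 classical monocyte genes outside the gate, 5 were called higher and none lower, with a median of 1.10, and 2 lay below 0. *Fn1* was on the other side, lower at -0.54 in PEP-619WW, but its direction depended on the PEP-WT members used: all PEP-619WW members stood at 0.24 over the PEP-WT members with *Xist* alone and at -0.92 over those with Y-linked UMIs alone. The listed gene *Cd14* was lower in PEP-619WW over both of these PEP-WT groups, at -0.48 and -0.65. *Ly6c2* differed by 2.65 (2.33 to 2.98) when only members with a Y-linked UMI and no *Xist* were compared in both genotypes.

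Nonclassical monocyte genes were higher in PEP-619WW too in run 2, 8 of 9 compared, with a median of 2.05. This did not hold in run 1, where 1 of 7 was called higher and none lower, 5 lay below 0 and the median was -0.27. The compared T cell genes (4 of 4, median 4.04) and NK cell genes (2 of 2, median 4.02) were higher as well. Without barcodes that held 2 or more UMIs of other cell types, the nonclassical genes were higher in 8 of 8 (median 1.96). That filter used T cell, B cell, NK cell, erythroid and melanocyte genes, and no dendritic cell or neutrophil genes. *Treml4* was higher by 3.19 (1.94 to 4.83), from 5 UMIs in PEP-WT and 164 in PEP-619WW, *Ace* by 2.28, *Spn* by 2.12 and *Nr4a1*, a transcription factor these cells depend on, by 1.34. *Cx3cr1*, the fractalkine receptor, was higher by 1.59 in run 2 and by 1.32 in run 1, and with the gate gene *S100a9* made up the 2 genes higher past 2-fold in both runs (*S100a9* turned to -0.10 in run 1 with at least 2 *Ccr2* UMIs). The levels of *Cx3cr1* were 29.0, 72.6, 24.5 and 73.7 CPM. The integrins *Itgal* (2.38), *Itga4* (1.48) and *Itgb7* (1.05) and the chemokine receptor *Cxcr4* (1.33) were higher as well, making 6 of 14 receptor and adhesion genes higher and none lower.

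Interferon-stimulated genes were higher in PEP-619WW in run 2 and lower in run 1. In run 2, 22 of 35 were called higher and none lower, the median was 1.09 and all 35 lay above 0. In run 1 none of 35 was called higher, 11 were lower, the median was -0.85 and all 35 lay below 0. *Irf7*, the transcription factor that amplifies type I interferon, stood at 755, 312, 57.2 and 127 CPM, so that its log2 ratio was 1.15 (0.94 to 1.37) in run 2 and -1.27 (-1.44 to -1.11) in run 1. *Usp18*, which dampens the interferon receptor, had 1.60 and -1.30, and *Oas3*, a sensor of viral RNA, had 1.49 and -1.04. *Isg15* was higher by 0.71 in run 2, short of 2-fold, and lower at -1.54 in run 1, at 901, 309, 169 and 276 CPM. The order of the levels for *Irf7* and *Isg15* was thus run 1 PEP-WT, run 1 PEP-619WW, run 2 PEP-619WW and run 2 PEP-WT, from high to low. The run 2 count of higher genes was 21 of 34 among members with a Y-linked UMI, where 7.04% of all compared genes were higher and 1.05% lower. It was 14 of 35 with median-ratio scaling (3.08% and 1.78% of all) and 10 of 34 in members without any C1q UMI (9.45% and 0.974% of all), with no listed gene lower in each. The difference between the runs was not tested.

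**Figure D2:**
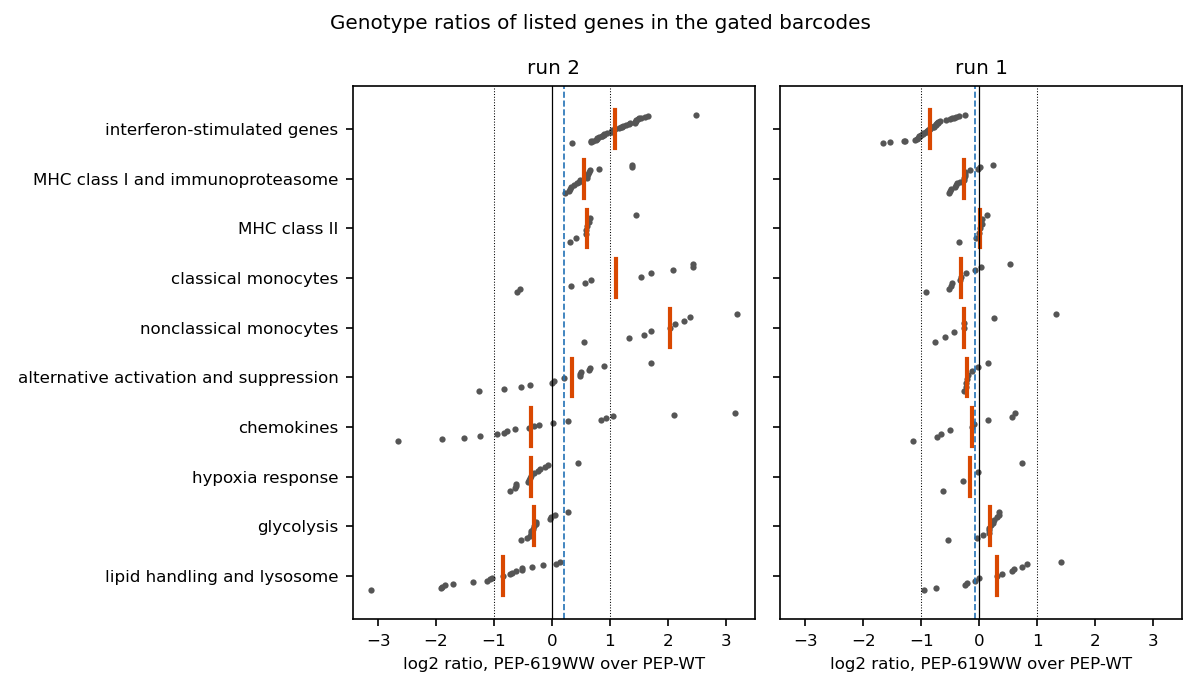
Log2 ratio of PEP-619WW over PEP-WT members for each compared gene of 10 lists, in run 2 and in run 1, without the gate genes, with the list median as an orange bar, the median over all compared genes as a blue dashed line and 2-fold as dotted lines. The interferon-stimulated genes lie above 0 in run 2 (median 1.09) and below 0 in run 1 (median -0.85), and the lipid and lysosome genes lie mostly below 0 in run 2 (median -0.84).

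The interferon gamma targets had 5 of 17 genes higher and 1 lower in PEP-619WW (median 0.74). *Gbp5* was higher by 1.51, *Irgm2* by 1.17 and *Irf1* by 1.01, while *Nos2* was lower at -1.14, at 28.0 and 12.7 CPM. Antigen presentation genes were above the overall median but mostly under 2-fold. For MHC class II, 1 of 8 genes was called, *Ciita*, the master regulator of the class (1.46, interval 1.23 to 1.69), and the median was 0.60. *Cd74* stood at 4857 and 7344 CPM (0.60) and *H2-Ab1* at 2399.6 and 3216 CPM. In MHC class I 2 of 16 were higher, *Nlrc5* and *H2-Q7*, with a median of 0.55. *Cd209a*, a lectin of monocyte-derived dendritic cells, was higher by 1.15, at 42.0 and 93.2 CPM. It also belongs to the list of conventional dendritic cell genes. The part of dendritic cells without a *Flt3* UMI in these values was not tested. No gene of the costimulation and checkpoint list was called among 12, and *Cd274*, which encodes PD-L1, differed by 0.04 (-0.16 to 0.23), again less than the median of all genes.

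Lipid handling and lysosome genes were lower in PEP-619WW in run 2, with 9 of 19 called lower, none higher, 17 below 0 and a median of -0.84. This did not hold in run 1, where 1 of 13 was called higher and none lower, 8 lay above 0 and the median was 0.31. The macrophage marker list, which shares *Apoe* and *Trem2* with the lipid list, had 3 of 7 lower in run 2, none higher and a median of -0.54. In run 1, 1 of 4 was higher, none was lower and the median was 0.42. The 3 genes lower in run 2 were *Trem2*, *Folr2* (44.8 and 11.8 CPM) and *C1qc*, a partner of the gate genes *C1qa* and *C1qb*. As given below, the PEP-WT share of *C1qc* was not above that in T cell barcodes, and the intervals for *Trem2* overlapped. *Spp1* was lower at -1.90 (interval -1.93 to -1.87), *Fabp5* at -1.71 (-1.74 to -1.68) and *Fabp4*, a related fatty acid carrier, at -3.12 (-3.31 to -2.93). At an equal depth of 2000 UMIs, *Fabp4* was seen in 14.7% of PEP-WT members (11.7 to 18.1%) and in 27.6% of 29 PEP-WT T cell barcodes (12.7 to 47.2%), which should lack it, so the PEP-WT share was not above the T cell share and is not read as expression. In PEP-619WW the shares were 2.81% of members and 0.685% of 730 T cell barcodes. For *Fabp5* the PEP-WT shares were 77.5% (73.6 to 81.1%) in members and 62.1% (42.3 to 79.3%) in T cell barcodes, with overlapping intervals. *Gpnmb*, *Cd36* and *Ctsl* were above this background in PEP-WT members, at 25.5, 31.7 and 68.5% against 3.45, 6.90 and 24.1%. *Gpnmb*, a glycoprotein of lipid-laden macrophages, was lower at -1.91, the lipid receptor *Trem2* at -1.12, the scavenger receptor *Cd36* at -1.36 and the protease *Ctsl* at -1.84. *Apoe* differed by 0.08, less than the median of all genes, and was higher in PEP-619WW by 1.41 in run 1. No hypoxia gene (13 of 14 below 0, median -0.37) and no glycolysis gene (11 of 13 below 0, median -0.32) passed 2-fold. The metallothionein *Mt2* was lower at -1.19. In the iron list *Hp*, haptoglobin, was higher by 2.10, and *Fth1* was lower at -0.73, short of 2-fold.

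Chemokines split by gene. *Ccl8* was lower in PEP-619WW at -2.65 (-2.77 to -2.53) in summed UMIs. At 2000 UMIs it was seen in 35.9% of PEP-WT members (31.7 to 40.3%) and in 34.5% of 29 PEP-WT T cell barcodes (17.9 to 54.3%), which should lack it, and in 80.3% of C1q-high barcodes. In PEP-619WW these shares were 2.15, 0.685 and 37.2%, and without thinning the members had 60.2% and 3.04%. The PEP-WT share in members was not above that in the few T cell barcodes, at median depths of 5191.5 and 6378 UMIs, and is not read as expression. The summed level nevertheless differed among PEP-WT members, at 256 CPM in those with *Xist* alone and 536 CPM in those with Y-linked UMIs alone. The part of free RNA in the *Ccl8* ratio between genotypes was not tested. *Ccl12* was lower at -1.90 and was seen in 29.1% of PEP-WT members against 6.90% of T cell barcodes. *Pf4* was lower at -1.52 and *Cxcl3* at -1.24, although *Cxcl3* stood at 0.048 in members without any C1q UMI. *Ccl22*, made by mature dendritic cells, was higher by 3.16, and its 321 UMIs came from 68 PEP-619WW members, 57.0% of them from 5 barcodes. *Ccl17* was higher by 1.06 and also sat in few members, 14 of 610 and 104 of 2272. *Ccl5* was higher by 2.11, but this became -0.039 without barcodes that held 2 or more UMIs of genes of other cell types. In the whole list 3 of 18 were higher and 4 lower.

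The alternative activation genes, so high in run 2, differed less between genotypes, with 1 of 14 higher (*Chil3*) and 1 lower (*Retnla*). *Arg1* was lower in PEP-619WW at -0.83 (-0.87 to -0.79) and *Mrc1* at -0.54 (-0.60 to -0.47). For *Arg1* the ratio was -0.22 over the PEP-WT members with *Xist* alone and -1.34 among members with a Y-linked UMI and no *Xist* in both genotypes. *Retnla* was lower at -1.26, with -0.18 over the PEP-WT members with *Xist* alone and -1.76 over those with Y-linked UMIs alone, but 59.1% of its PEP-WT UMIs and 41.8% of its PEP-619WW UMIs came from 5 barcodes, and among members with a *Ly6c2* UMI it was higher in PEP-619WW (1.49). Of the inflammatory genes, none of 8 was higher in run 1, 3 were lower, all 8 lay below 0 and the median was -0.83. In run 2, 3 of 12 were higher and none lower, 5 lay below 0, and the median of 0.20 was not above the 0.21 of all compared genes. *Il1b*, the interleukin 1 beta gene, was higher by 1.29, at 85.7, 76.9, 204 and 497 CPM in the 4 libraries. Its ratio was 0.88 over the PEP-WT members with *Xist* alone and 2.07 among members with a Y-linked UMI and no *Xist* in both genotypes. *Il18* was higher by 1.01. *Tnf* ranged over the 4 libraries from 12.8 to 20.3 CPM. Complement *C3* was higher by 1.34 and *C1qc*, a partner of the gate genes, was lower at -1.47, although its share in PEP-WT members (14.1% at 2000 UMIs) was not above that in T cell barcodes (20.7%).

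*Ptpn22* itself was detected in the members at 31.7, 29.9, 25.3 and 44.0 CPM, so it was higher in PEP-619WW in run 2 by 0.80 (0.48 to 1.13), short of 2-fold, and differed by -0.09 (-0.71 to 0.52) in run 1. Gene counts do not show the changed codon and so do not check the genotype. Of PEP's kinases, *Fgr* was the only 1 of 8 listed genes past 2-fold (1.05), *Lyn* differed by 0.65 and *Csk* by 0.55. The list median was 0.60.

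The 12 genes with the largest and the 12 with the smallest genotype ratio were mostly genes of few members. A gene with only a few PEP-WT UMIs could reach the limit of 100 UMIs only through PEP-619WW, so its direction was set by that limit. The genes higher in PEP-619WW included the T and NK cell genes *Trbc2*, *Trac*, *Cd3g*, *Gzma*, *Gimap1*, *Gimap3* and *Tnfrsf4*. *Cd3g* had 2 UMIs in PEP-WT and 196 in 76 PEP-619WW members, and the granzyme *Gzma* had 5 and 694, the latter in 61 members. *Ltb* (3.23) and *Ccr7* (4.89) belong with lymphocytes and migrating dendritic cells, and *Ccr7* was seen in 35 PEP-619WW members. *Ly6d*, a B lineage antigen, had no UMI in PEP-WT and 116 in PEP-619WW, at least 10.7-fold higher. T cell barcodes made up far more of run 2 PEP-619WW, where 1662 barcodes held 3 or more T cell genes against 76 in PEP-WT. *Gimap3*, which is in no marker list, had 0 UMIs in PEP-WT, so its ratio of 3.40 is a lower bound with 3 UMIs standing in. That bound was -0.081 once barcodes with 2 or more UMIs of other cell types were removed, and a bound below 0 gives no direction. The remaining genes were *Arhgef37* and *BC035044*. *Arhgef37* was seen in 139 of 2272 PEP-619WW and 5 of 610 PEP-WT members (3.26, interval 2.01 to 4.90), and *BC035044* in 110 and 4 (3.26, 1.87 to 5.16). Both stood higher still in run 1, at 61.2 and 39.3 CPM for *Arhgef37*.

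Among the genes lowest in PEP-619WW, the granzyme genes *Gzmd* and *Gzme* came from 1 PEP-WT barcode. It held 369 of the 371 *Gzmd* UMIs and all 123 *Gzme* UMIs, among 16268 UMIs in all, with 5 UMIs of *Lyz2*, 12 of *Ccr2* and 3 of the NK cell receptor gene *Ncr1*. *Gzmd* turned to 0.27 among members with a Y-linked UMI. *Wfdc21* was lower at -5.10 in run 2 and higher by 1.30 in run 1. In run 2 PEP-WT it was seen in 22 members, with 159 of its 171 UMIs in members with a Y-linked UMI and 0 in members with *Xist*. *Ltc4s*, leukotriene C4 synthase, was lower at -3.59 and seen in 61 PEP-WT and 63 PEP-619WW members. Its ratio was -1.55 over the PEP-WT members with *Xist* alone and -4.35 over those with Y-linked UMIs alone. *Gas6*, a ligand that helps macrophages take up dying cells, was lower at -2.76, and *Serpinb6a* at -2.40. Also among these genes were *2010005H15Rik* (-3.90), *Xist*, *Fabp4*, *Ccl8* and *AY036118* (-3.09).

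The PEP-WT members with *Xist* and those with a Y-linked UMI were compared with each other. Of 3115 compared genes, 21 were higher and 21 lower in the 201 members with *Xist* alone than in the 156 with Y-linked UMIs alone (0.674% each way). Of the 451 genes called higher in PEP-619WW, 285 were past 2-fold over each of these groups taken alone, and so were 51 of the 96 called lower. *Ly6c2* stood at 90.05 and 68.2 CPM, *Irf7* at 48.5 and 47.7 CPM and *Spp1* at 5046 and 4417 CPM, so for these 3 genes the groups were close to each other and each was on the same side of PEP-619WW. Other lipid genes were not close: *Fabp4* stood at 274 and 93.7 CPM and *Gpnmb* at 376 and 148 CPM. Among members with a Y-linked UMI and no *Xist* in both genotypes, their genotype ratios were -1.94 for *Fabp4* and -1.15 for *Gpnmb*. *Fn1* and *Arg1* were not close either: *Fn1* stood at 1479.9 and 3304 CPM (log2 -1.16) and *Arg1* at 1493 and 2958 CPM (-0.99). *Il1b* was higher in the PEP-WT members with *Xist*, at 269 against 115 CPM. Members of the 2 kinds come from different animals of the pool, in numbers that the data do not give.

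The members were not uniform, and the shares of members with a UMI are given at an equal depth of 2000 UMIs drawn from each barcode, which kept 498 of the 610 PEP-WT members and 1996 of the 2272 PEP-619WW members. *Ly6c2* was seen in 10.6% of PEP-WT members (8.07 to 13.7%) and 35.5% of PEP-619WW members (33.4 to 37.7%), and without thinning in 16.1% and 47.4%. C1q-high barcodes, which should lack it, had *Ly6c2* in 0.571% and 6.73%, at median depths of 8682 and 5229 UMIs. *Plac8* was seen in 26.1% and 66.7% of members and in 3.46% and 21.5% of C1q-high barcodes. For both genes the members were above this background in each genotype. *Spp1* was seen in 54.8% and 26.0% of members, *Trem2* in 34.3% (30.2 to 38.7%) and 17.7%, and *Arg1* in 47.6% and 32.4%. T cell barcodes, which should lack these genes, had *Spp1* in 24.1% of 29 barcodes and 6.71% of 730, *Trem2* in 13.8% (3.89 to 31.7%) and 1.10%, and *Arg1* in 3.45% and 5.34%. The intervals for *Trem2* overlapped in PEP-WT. The part of free RNA in the *Spp1* and *Trem2* shares was not tested. *Fn1* was seen in 63.3% and 69.1% and *H2-Ab1* in 66.5% and 66.5%, close between genotypes. *Mki67*, a marker of dividing cells, was seen in 2.61% and 2.25%.

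**Figure D3:**
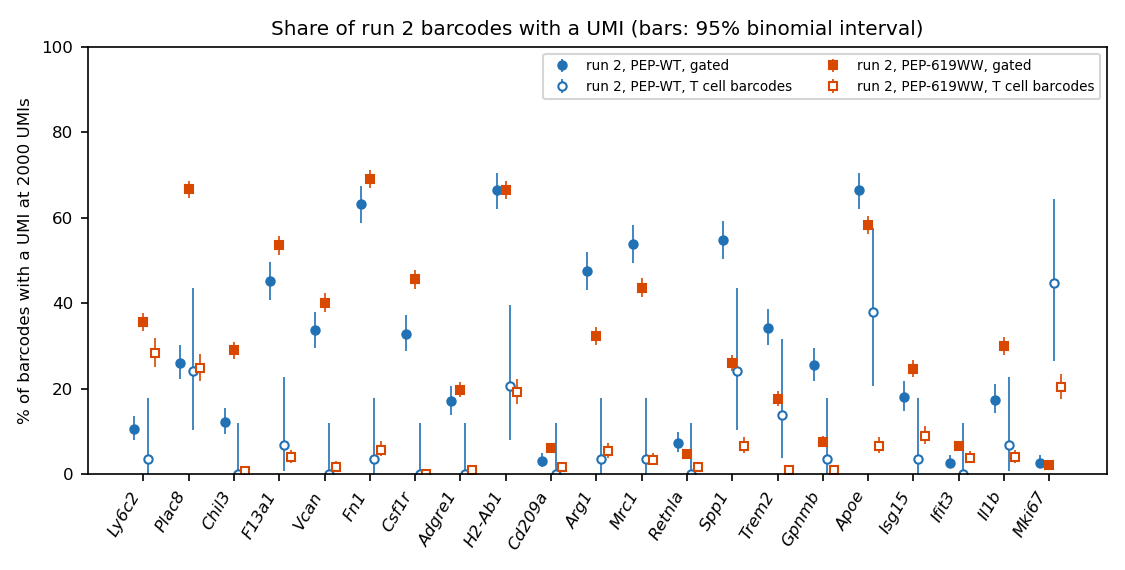
Share of run 2 barcodes with at least 1 UMI of a gene after thinning to 2000 UMIs, for members (filled) and T cell barcodes (open) of each genotype, with exact 95% binomial intervals. Members with *Ly6c2* make up 10.6% in PEP-WT and 35.5% in PEP-619WW, and members with *Spp1* 54.8% and 26.0%.

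The same thinned barcodes give the spread of each program over members. The interferon-stimulated genes had a median of 53, 32, 7 and 15 UMIs per 2000 in run 1 PEP-WT, run 1 PEP-619WW, run 2 PEP-WT and run 2 PEP-619WW. The classical monocyte genes, without the gate genes, had medians of 40, 30, 7 and 13. For both lists run 2 PEP-WT was lowest and run 2 PEP-619WW lay between it and run 1. Lipid and lysosome genes had medians of 11, 11, 40 and 20 UMIs, chemokines 2, 2, 23.5 and 11, and glycolysis 7, 8, 20 and 14. MHC class II genes had 13, 16, 12 and 23, with the highest median in run 2 PEP-619WW.

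**Figure D4:**
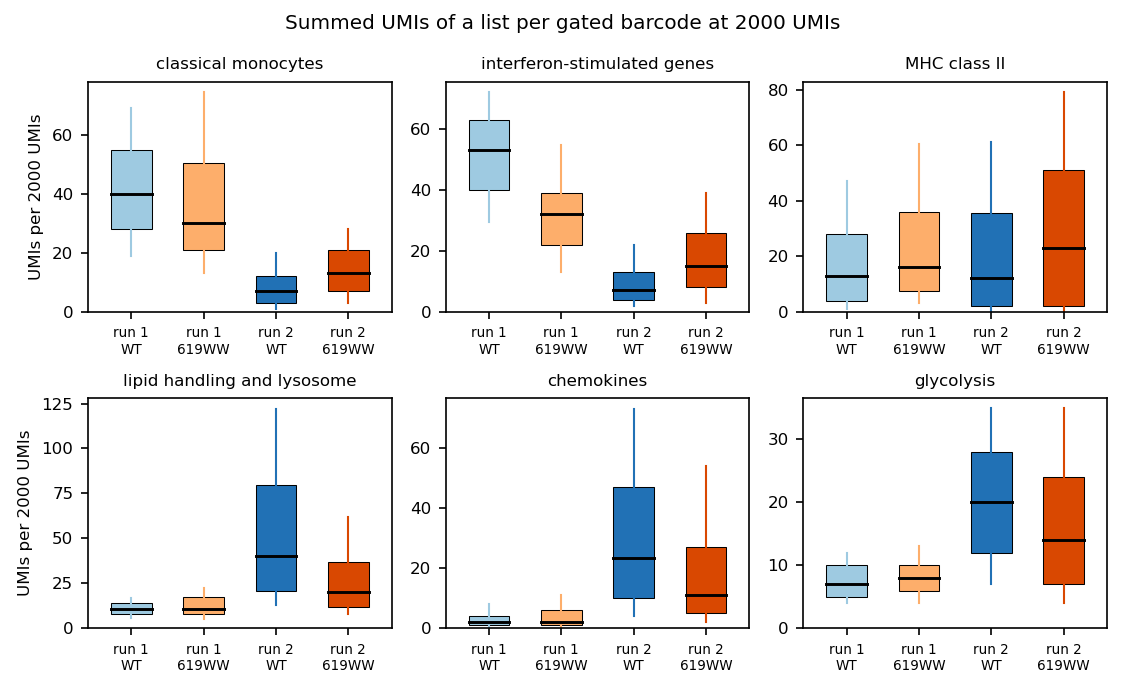
Summed UMIs of 6 gene lists per member after thinning to 2000 UMIs, in the 4 libraries; boxes span the middle 50% of members, lines mark the median and whiskers the 10th and 90th percentiles. The median for interferon-stimulated genes is 53 in run 1 PEP-WT and 7 in run 2 PEP-WT, and that for lipid and lysosome genes 11 and 40.

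*Ly6c2* varied widely among the PEP-619WW members of run 2, of which 1076 of 2272 had at least 1 UMI, and in PEP-WT 98 of 610 did. To see which genes varied with it, the 25% of PEP-619WW members with the most *Ly6c2* per UMI (568) were summed and set against the 25% with the least (568), with ties drawn at random. Of 6188 compared genes, 244 were higher (3.94%) and 230 lower (3.72%) in the *Ly6c2*-high members, with a median log2 ratio of 0.06. This is a description, since the split was made on the same barcodes. Of 9 compared classical monocyte genes, without *Ly6c2* and the gate genes, 5 were higher in the *Ly6c2*-high members and none lower (median 1.23), with *Plac8* at 4142 against 827 CPM. The haptoglobin gene *Hp* stood at 499 against 37.1 CPM. Interferon-stimulated genes were higher in 18 of 34 and lower in none (median 1.01), with *Irf7* at 249 against 70.2 CPM, and interferon gamma targets in 7 of 14 (median 1.08).

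Other lists were lower in the *Ly6c2*-high members. Lipid and lysosome genes were lower in the *Ly6c2*-high members in 10 of 19 (median -1.19), hypoxia genes in 8 of 13 (median -1.09), alternative activation genes in 6 of 14 (median -0.91), MHC class II genes in 3 of 8 (median -0.86) and cell cycle genes in 5 of 7 (median -2.34). No glycolysis gene of 13 was called (median -0.81), and 1 of 6 macrophage genes was lower. *Arg1* stood at 336 CPM in the *Ly6c2*-high and 1625 CPM in the *Ly6c2*-low members, and *Mrc1* at 264 and 719 CPM. *Mgl2* stood at 39.6 and 622 CPM, *Ccl17* at 2.22 and 306 CPM and *H2-Ab1* at 1897 and 3902 CPM. *Apoe* was close to level, at 1565 and 1448 CPM. In PEP-WT the split was weak, since 54 of the 152 members in the upper 25% had no *Ly6c2* UMI. Of 2428 genes compared there, 40 were higher (1.65%) and 15 lower (0.618%). Among them 8 of 16 interferon-stimulated genes were higher (median 1.08) and none of 19 lipid and lysosome genes was lower (median 0.06). Setting the 19 PEP-WT members with at least 5 *Ly6c2* UMIs against the 512 with none called 148 of 3769 genes higher (3.93%) and 340 lower (9.02%). In that split 15 of 19 interferon-stimulated genes were higher (median 1.45), while 4 of 19 lipid and lysosome genes (median -0.22), 5 of 13 hypoxia genes (median -0.86) and 5 of 13 alternative activation genes (median -0.50) were lower. With only 19 members in the high group, genes near the limit of 100 UMIs rest on few UMIs there. These counts are given without intervals, and the part of counting error in them was not tested.

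**Figure D5:**
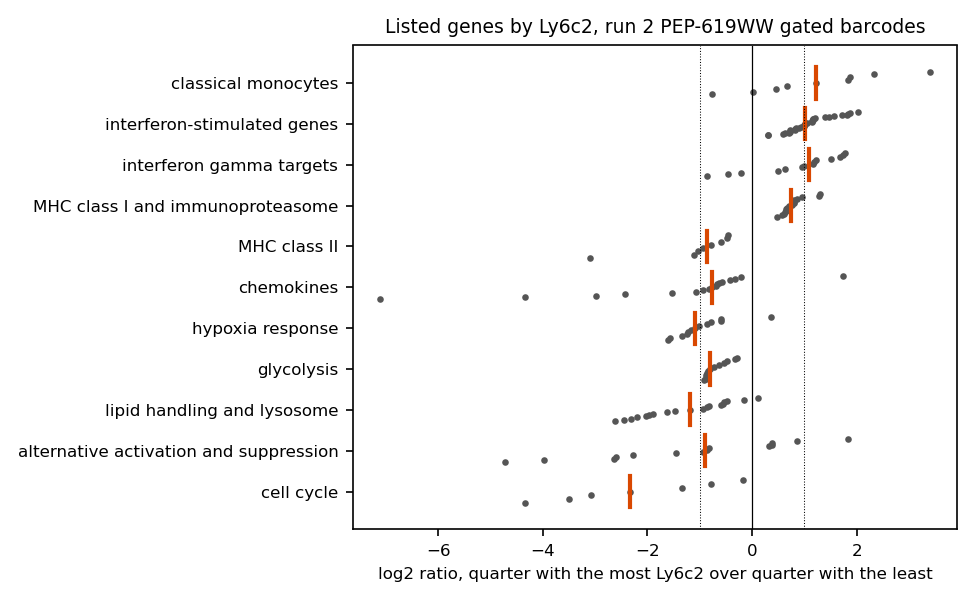
Log2 ratio of the 25% of run 2 PEP-619WW members with most *Ly6c2* over the 25% with least, for each compared gene of 11 lists without *Ly6c2* and the gate genes, with list medians as bars. The interferon-stimulated genes have a median of 1.01 and the lipid and lysosome genes a median of -1.19.

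Pairs of genes within members were read at 2000 UMIs, where *Arg1* was seen in 19.5% of PEP-619WW members with *Ly6c2* and 39.5% of those without it, and *H2-Ab1* in 50.1% and 75.6%. *Isg15* was seen in 34.4% and 19.3%, and *Apoe* in 63.0% and 55.8%, so that it was more frequent with *Ly6c2*. In PEP-WT *Apoe* was seen in 84.9% of the 53 members with *Ly6c2* and 64.3% of the 445 without it. *Cd209a* marked a further part of the PEP-619WW members: of the 123 members with it, 91.1% had *H2-Ab1*, 11.4% had *Arg1* and 13.01% had *Apoe*, against 64.9%, 33.8% and 61.3% of the 1873 without it. The few PEP-WT members with *Cd209a* went the same way: of 15, 93.3% had *H2-Ab1*, 13.3% *Arg1* and 33.3% *Apoe*. Among the 483 PEP-WT members without it these shares were 65.6%, 48.7% and 67.5%. In PEP-WT, *Fn1* was seen in 76.4% of members with *Arg1* and 51.3% of members without, and *H2-Ab1* in 59.9% and 72.4%. In PEP-619WW the shares were 83.5% and 62.3% for *Fn1* and 69.2% and 65.2% for *H2-Ab1*, which thus went the other way.

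Because members with *Ly6c2* were more frequent in PEP-619WW, the genotype contrast was repeated within members with and without a *Ly6c2* UMI, an alternative added after seeing the data. Among members without it, 214 of 7395 genes were higher (2.89%) and 53 lower (0.717%) in PEP-619WW, fewer than the 451 and 96 of all members, and among members with it 672 of 6247 were higher (10.8%) and 104 lower (1.66%). Interferon-stimulated genes were higher in 10 of 34 without *Ly6c2* (median 0.80) and in 11 of 34 with it (median 0.68), and none was lower in either. Lipid and lysosome genes were lower in 5 of 19 (median -0.57) and 11 of 19 (median -1.31). The direction of both lists was the same in each stratum, and for interferon-stimulated genes the size was smaller than over all members. A member can hold *Ly6c2* RNA without a captured UMI, so the strata do not separate states. Whether the mix of members accounts for the genotype ratios was not tested. The PEP-WT stratum with *Ly6c2* held only 98 members.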

How the data were processed

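The deposited files hold counts: whole, unnormalized numbers of UMIs that the authors obtained with Cell Ranger 6.0.0 and mm10 in the submitters' processing notes, while the methods name another release. Barcodes were used as the authors filtered them. No doublet caller was run, and barcodes with UMIs of other cell types were removed as an alternative. The members and gene lists were chosen with earlier results of these data known.

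Members were gated on raw counts in each library. UMIs were summed over members and scaled to 1000000 per library. Ratios have exact conditional Poisson intervals at 95%, and shares have exact binomial intervals (scipy 1.17.1 and numpy 2.4.6 in Python 3.11.15, with tables read by pandas 2.3.3). A gene was compared with at least 100 UMIs in both sums together and called at 2-fold. Where a sum was 0, 3 UMIs stood in for it, and no ratio was given where both sums were at or below 3. With 1 library per genotype and run there was no test. Library depth was 55504449 to 77916082 UMIs, and the member sums were 2205312, 1170093, 3638951 and 13101819 UMIs.

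The text names the 12 genes with the largest and the 12 with the smallest ratio between genotypes in run 2 and between runs in both genotypes, the 12 most abundant genes, and list members past 2-fold or with most UMIs. Some further genes, such as *Apoe*, *Tnf* and *Cd274*, were named after their values were seen. Some genes that the rule selects are not reported here. *Rigi*, *Ero1a* and *Sting1* were matched by RefSeq synonyms, and *Mx1* and *Mx2* of the interferon list were not analysed here. Alternatives were other gates and depths, thinning to 2000 UMIs, other scalings, UMI limits and folds. The scripts were tested on simulated data.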

Additional observations from a re-analysis of the deposited data

Results flagged for a closer look

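For 21 genes PEP-619WW was higher past 2-fold in run 2 and lower past 2-fold in run 1, and for 1 gene the reverse held. The 10 of these genes that the lists or the rule for named genes hold are given here. The interferon-stimulated list holds 7 of the 10, each higher in PEP-619WW in run 2 and lower in run 1. The log2 ratio was 1.15 in run 2 and -1.27 in run 1 for *Irf7*, 1.60 and -1.30 for *Usp18*, 1.49 and -1.04 for *Oas3* (1.485 before rounding), 1.23 and -1.02 for *Ifit3*, 1.28 and -1.03 for the RNA sensor *Rigi*, 1.199 and -1.06 for *Trim30a* and 1.02 and -1.11 for *Isg20*. The G-CSF receptor gene *Csf3r* (1.52 and -1.13) and the cytokine gene *Il18* (1.01 and -1.71) had the same pattern. *Wfdc21* was the reverse, at -5.10 in run 2 and 1.30 in run 1, and sat in 22 of 610 PEP-WT members of run 2. With 1 library per genotype in each run, the difference between the runs was not tested for any of these genes, and run 2 members differ from run 1 members in their sex-linked transcripts as well.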

How the results depend on the processing

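A genotype fit over both runs with the run as a block, which the 4 libraries would allow with 1 residual degree of freedom, was not made, since the labels do not call the runs replicates. The share of barcodes in the gate, given as run 1 PEP-WT, run 1 PEP-619WW, run 2 PEP-WT and run 2 PEP-619WW where all moved beyond their intervals, was 1.94, 1.04, 4.62 and 18.1% with at least 2 *Ccr2* UMIs, 1.64, 0.863, 1.96 and 16.1% with 0 UMIs of *C1qa* and *C1qb*, and 0.884, 0.653, 5.25 and 16.4% without barcodes holding 2 or more UMIs of other cell types. With at least 10 *Lyz2* UMIs it was 1.22% in run 1 PEP-619WW, 5.26% in run 2 PEP-WT and 17.7% in run 2 PEP-619WW. Thinning to 2000 UMIs before the gate gave 4.49 and 17.5% in run 2, at least 500 genes with under 10% mitochondrial UMIs gave 5.81% in run 2 PEP-WT, and leaving out the top 5% by UMIs gave 19.6% in run 2 PEP-619WW.

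Counts of called genes moved by over 1.5 times as follows. Between genotypes in run 2, 718 genes were higher with 0 C1q UMIs, 261 were higher and 151 lower with median-ratio scaling, 195 and 44 at a minimum of 400 UMIs, 96 and 40 at 3-fold, 214 and 53 in members without *Ly6c2*, and 160, 52 and 54 were lower with a minimum of 50 UMIs, with thinning before the gate and with thinned members. In run 1 the higher genes numbered 20 with at least 10 *Lyz2* UMIs, 11 with 0 C1q UMIs, 7 without barcodes of other cell types, 11 with either thinning, 16 without the top 5%, 57 with the mean of per-barcode CPM, and 61 and 9 at minimums of 50 and 400 UMIs, and 9 passed 3-fold. The lower genes in run 1 numbered 28 without barcodes of other cell types, 23 and 31 with thinning before and after the gate, 125 with the mean of per-barcode CPM, 30 when ribosomal, mitochondrial, immunoglobulin and hemoglobin genes were left out of the totals, 32 with median-ratio scaling, 99 and 14 at minimums of 50 and 400 UMIs, and 13 at 3-fold. Between runs in PEP-WT the higher genes were 262 with 0 C1q UMIs, 215 and 241 with thinning before and after the gate, 210 at a minimum of 400 UMIs and 314 at 3-fold, and the lower genes were 579 without barcodes of other cell types, 369 and 404 with thinning, 289 at 400 UMIs and 413 at 3-fold. Between runs in PEP-619WW, 550 were higher and 206 lower at 400 UMIs, 550 and 196 at 3-fold, and 262 and 291 lower with thinning. Fewer compared genes are built into the thinned, smaller and stricter settings, and otherwise the cause was not tested. In PEP-WT, the 19 members with at least 5 *Ly6c2* UMIs against the 512 with none gave 148 higher and 340 lower genes.

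The interferon-stimulated genes between genotypes in run 2 had 3 of 35 past 3-fold and 10 to 24 called higher in the other settings, and none lower in any. Single genes that turned were *S100a9* with at least 2 *Ccr2* UMIs (-0.10 between genotypes in run 1, 0.10 between runs in PEP-619WW), *Cxcl3* with 0 C1q UMIs (0.048), *Mzb1* between genotypes in run 1 without the top 5% (-0.12), and *Gzmd* among members with a Y-linked UMI (0.27). Without barcodes of other cell types, the run 2 genotype ratio was -0.039 for *Ccl5*, -0.40 for *Klre1*, -0.60 for *Trac* and 0.077 for *Saa3*, and the run ratio in PEP-619WW was -2.99 for *Cd3g*, -2.61 for *Gzma* and -1.14 for *Tnfrsf4*. For *Gimap3*, with 0 UMIs in PEP-WT, the value of -0.081 is a lower bound and shows no turn. Where a setting left a sum at 0, other values here are bounds as well. *Trac*, *Klre1*, *Cd3g* and *Gzma* are themselves in the lists this filter uses. With *Ly6c2* present the genotype ratio was -0.36 for *Klre1* and 1.49 for *Retnla*. With it absent the value for *Ly6d* was -0.81, a lower bound that shows no turn, since PEP-WT had 0 UMIs. The run ratio in PEP-619WW was -0.74 for *Cd3g* and -0.14 for *Nos2* with thinning before the gate, and with thinned members -0.81 for *Ccr7*, -0.16 for *Cd3g*, -0.64 for *Folr2*, -0.12 for *Gzma* and -0.45 for *Ltc4s*. For the Y-linked *Kdm5d* it was -0.052, a lower bound that shows no turn, since run 1 PEP-619WW members had 0 Y-linked UMIs. The depth of run 1 PEP-619WW, 131 members, limits every contrast that uses it.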

Other observations

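Other lists went both ways between the runs. Of the compared monocyte transcription factors, 3 of 12 were higher and 5 lower in run 2 in PEP-WT, and 3 of 13 were higher and 3 lower in PEP-619WW. Of 8 complement genes 4 and 3 were higher and 3 and 2 lower, and of 6 Fc receptor genes 1 was higher and 1 lower in each genotype. Among the transcription factors, *Bhlhe40* was higher in run 2 by 3.23 in PEP-WT and 1.496 in PEP-619WW on the log2 scale, while *Klf2* (-2.19 and -1.41), *Irf8* (-1.65 and -1.27) and *Nr4a1* (-3.38 and -1.78) were lower. The complement receptors *C3ar1* (5.90 and 4.29) and *C5ar1* (5.08 and 3.34) were higher, and the alternative pathway factor *Cfb* was lower (-4.05 and -2.38). The inhibitory Fc receptor *Fcgr2b* was higher by 2.19 and 2.26, and the activating *Fcgr4* was lower at -1.26 and -1.90. Within run 2 the genotypes differed in *Fcgr2b* by -0.05 and in *Fcgr4* by 0.09.

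Of 9 heat shock genes, 2 were higher in run 2 in PEP-WT and 3 in PEP-619WW, and of 4 compared metallothioneins 2 were higher in each, with none lower in either list. The heat shock gene *Hspa1a* stood at 25.4, 9.40, 179 and 240.3 CPM in run 1 PEP-WT, run 1 PEP-619WW, run 2 PEP-WT and run 2 PEP-619WW, and the metallothionein *Mt1* at 63.0, 99.1, 775 and 483 CPM. The immediate early gene *Fos* had 804, 459, 251 and 365 CPM, lowest in run 2 PEP-WT. *Egr2* stood at 5.44, 1.71, 31.6 and 80.0 CPM. The endotoxin receptor genes *Cd14* (2.36 and 1.74) and *Tlr4* (1.39 and 1.44) were higher in run 2, and no gene of the pattern recognition list passed 2-fold between the genotypes of run 2 among 18 compared.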
